A study of Mus musculus with 9 samples.

Results

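The cadherins *Cdh1*, *Cdh2*, *Cdh3*, *Cdh6*, *Cdh11* and *Cdh13* and the adhesion molecule *Alcam* were followed in mouse uteri with and without uterine *Wnk1*. These 7 genes were chosen by symbol from the 31274 entries of the deposited expression table, with earlier results of these data known. The endothelial cadherin *Cdh5* was set aside as a vessel marker. RNA-Seq had been run on whole uteri of C57BL/6 mice on pseudopregnancy day 4.5, after mating with vasectomized males, with 1 library for each of 4 Wnk1f/f and 5 Wnk1d/d mice. Both genotypes carry floxed *Wnk1*. Wnk1d/d mice also carry Cre recombinase driven by the progesterone receptor gene, which removes exon 2 of *Wnk1* in progesterone receptor-positive cells of the uterus and also acts in the ovary and pituitary, while Wnk1f/f mice lack Cre. The comparison asked how the mRNA of adhesion molecules of the epithelium and of the stroma differed between the genotypes.

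Cadherins are single-pass membrane proteins whose extracellular repeats bind calcium and pair with cadherins of the neighbouring cell. Their cytoplasmic tails hold β-catenin or plakoglobin and p120 catenin, and α-catenin links this complex to actin. E-cadherin (*Cdh1*) and P-cadherin (*Cdh3*) are typical of epithelia, N-cadherin (*Cdh2*) and cadherin-11 (*Cdh11*) of mesenchymal cells, and T-cadherin (*Cdh13*) has a lipid anchor in place of a tail. ALCAM (CD166) belongs to the immunoglobulin superfamily and binds itself and CD6. In the uterus, epithelial adhesion is remodelled around the time of embryo attachment, and stromal cells change their cadherins as they decidualize.

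Values are FPKM (fragments divided by exon length in kilobases and by the library's mapped total) as the authors deposited them, so levels may be compared between genes, and fold changes are differences of log2(FPKM + 1), which understate changes of low genes. A gene was called when limma gave a Benjamini-Hochberg adjusted p under 0.05 over all 14728 genes tested and mean FPKM differed at least 1.5-fold. Each gene was further compared by permuting the genotypes over the libraries (exact permutation test, two-sided), which with 4 and 5 libraries cannot give a p below 0.0079. *Wnk1*, the targeted gene, ranged from 43.4 to 47.3 FPKM in Wnk1f/f and from 29.9 to 33.9 FPKM in Wnk1d/d libraries, without overlap (log2 fold change -0.52, limma adjusted p = 0.0017). These values cover the whole gene and include exons outside the deletion. Libraries that stood apart were Wnk1f/f replicate 4 and Wnk1d/d replicate 4. The former had 157.7 FPKM summed over 6 liver markers, against 8.28 to 28.1 FPKM in the others. In the latter 1 entry made up 70.3% of the summed FPKM. The median log2(FPKM + 1) of tested genes was 3.795 in Wnk1d/d replicate 4 and 3.797 to 3.822 in the other libraries.

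All 7 genes passed the filter of a mean above 1 FPKM in at least 1 genotype, and 5 were called, against 10.3% of all genes tested. *Alcam*, *Cdh6* and *Cdh3* were higher in Wnk1d/d uteri (5.09% of tested genes were called higher), and *Cdh11* and *Cdh13* were lower (5.18% were called lower). *Cdh2* passed the adjusted p but not the fold criterion, which made 6 of 7 genes with an adjusted p under 0.05, against 22.1% of all genes. *Cdh1* did not pass either criterion. The genotypes did not overlap for *Alcam*, *Cdh6*, *Cdh3* and *Cdh11*, against 19.9% of all genes (9.27% without overlap and higher, 10.6% without overlap and lower in Wnk1d/d). The median log2 fold change of the 7 genes was 0.13, beside 0.003 for all genes tested. Because the 7 genes were chosen with earlier results known, their counts beside all genes are a description. Without Wnk1f/f replicate 4 and Wnk1d/d replicate 4 together, 3 of the 7 genes were called (*Alcam*, *Cdh6* and *Cdh11*), and 5.50% of the genes tested.

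**Figure D1:**
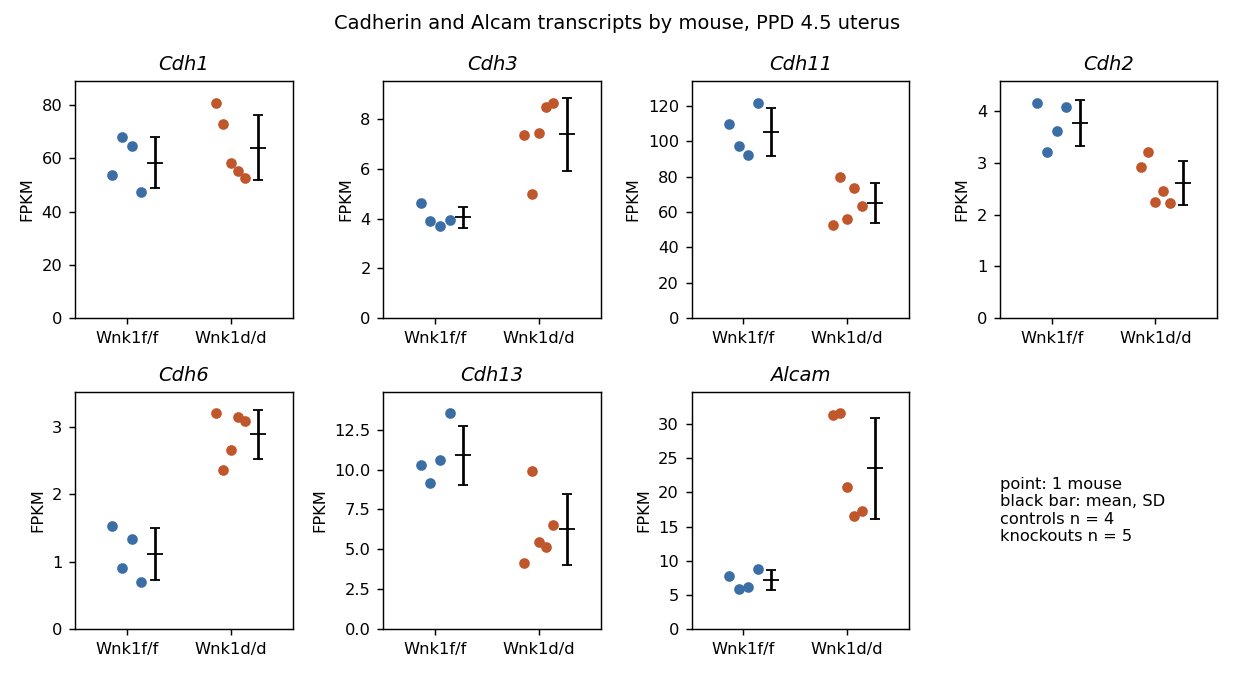
FPKM (vertical axes, from 0) of each gene in every library, with Wnk1f/f on the left and Wnk1d/d on the right of each panel. Points are single uteri and the bars give the mean and SD (n = 4 and 5). *Alcam*, *Cdh6* and *Cdh3* separate upward in Wnk1d/d, *Cdh11* separates downward, and the *Cdh1* points overlap.

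**Figure D2:**
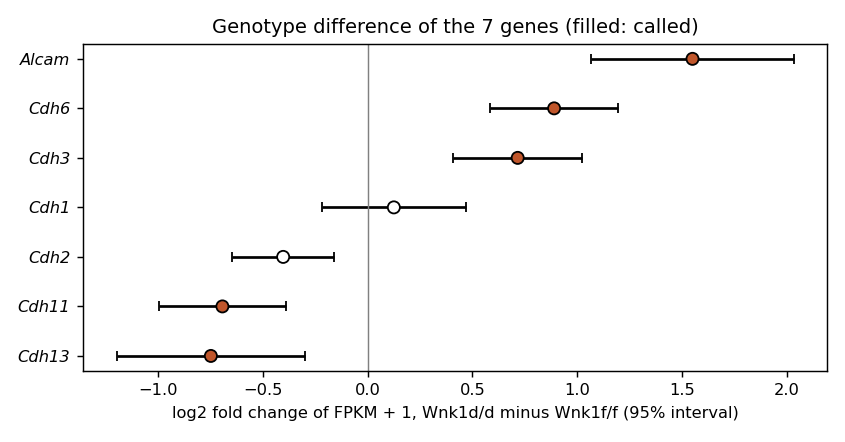
Difference of log2(FPKM + 1), Wnk1d/d minus Wnk1f/f, for the 7 genes (horizontal axis), with 95% intervals from limma. Filled points mark the 5 called genes, and the *Cdh1* interval is the one that crosses 0.

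*Cdh1* encodes the main adherens junction cadherin of epithelia and lies on the plus strand at chr8:106603351-106670246 (mm10, GENCODE M21). It measured 53.6, 68.2, 64.5 and 47.3 FPKM in Wnk1f/f replicates 1 to 4 and 81.0, 73.0, 58.4, 55.4 and 52.5 FPKM in Wnk1d/d replicates 1 to 5. Wnk1d/d replicates 1 and 2 were above every control and the other 3 lay among the controls. The means were 58.4 ± 9.65 FPKM (SD, n = 4) and 64.1 ± 12.3 FPKM (SD, n = 5), and the log2 fold change was 0.13 with a standard error of 0.15 (limma adjusted p = 0.57). The 95% interval of the fold change ran from 0.860 to 1.38, so a change of up to 1.38-fold upward was within reach of these data.

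*Cdh3*, the P-cadherin of basal and some glandular epithelia, lies on the same strand at chr8:106510891-106557297 and ends 46053 bases before *Cdh1* begins. It measured 4.64, 3.88, 3.71 and 3.94 FPKM in Wnk1f/f and 7.35, 5.0, 7.43, 8.47 and 8.65 FPKM in Wnk1d/d libraries. Every Wnk1d/d library was above every control, with replicate 2 the closest. The means were 4.04 ± 0.410 FPKM (SD, n = 4) and 7.38 ± 1.46 FPKM (SD, n = 5), a ratio of 1.83, and the log2 fold change was 0.72 with a standard error of 0.14 (limma adjusted p = 0.0093). By exact permutation p was 0.016. Without Wnk1f/f replicate 4 and Wnk1d/d replicate 4 together the limma adjusted p was 0.051. The neighbouring genes *Cdh1* and *Cdh3* therefore gave different calls, although the difference between their fold changes was not tested. Over the 9 libraries Pearson's r of *Cdh3* with *Cdh1* was -0.03, and -0.57 after removal of the genotype means. In Wnk1d/d replicates 1 to 5 summed smooth muscle markers were 9534, 7256, 10825, 13736 and 13185 FPKM. Summed epithelial markers were 1835, 1577, 1543, 1329 and 1230 FPKM. Which cells held *Cdh3* mRNA was not tested.

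*Cdh11*, a type II cadherin of mesenchymal cells, lies on the minus strand at chr8:102632095-102785642 and had the highest mean level of the 7 genes in both genotypes. It measured 109.9, 97.3, 92.1 and 121.9 FPKM in Wnk1f/f and 53.0, 79.9, 55.9, 73.8 and 63.4 FPKM in Wnk1d/d libraries. The lowest control remained above the highest Wnk1d/d library. The means were 105 ± 13.4 FPKM (SD, n = 4) and 65.2 ± 11.5 FPKM (SD, n = 5), a ratio of 0.619, and the log2 fold change was -0.69 with a standard error of 0.14 (limma adjusted p = 0.0099). By exact permutation p was 0.0079. In RNA of a whole organ, fewer cells of a type and less RNA per cell cannot be told apart.

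*Cdh2*, N-cadherin, lies on chromosome 18 and was much lower than *Cdh11*. It measured 4.16, 3.20, 3.61 and 4.07 FPKM in Wnk1f/f and 2.91, 3.20, 2.24, 2.46 and 2.23 FPKM in Wnk1d/d libraries. The genotypes met at 3.20 FPKM, the lowest control and the highest Wnk1d/d value. The means were 3.76 ± 0.444 FPKM (SD, n = 4) and 2.61 ± 0.431 FPKM (SD, n = 5), a ratio of 0.694, and the log2 fold change was -0.40 with a standard error of 0.11 (limma adjusted p = 0.029). Its adjusted p was no longer under 0.05 when any of 5 single libraries was left out (Wnk1f/f replicate 1 or 4, or Wnk1d/d replicate 3, 4 or 5), with limma adjusted p from 0.060 to 0.079. It met both criteria and was called without Wnk1f/f replicate 2 (ratio 0.661, limma adjusted p = 0.032) or without Wnk1d/d replicate 2 (ratio 0.654, limma adjusted p = 0.0135). Both stromal cadherins thus had lower values in Wnk1d/d uteri, and *Cdh11* alone of the pair met the fold criterion with all libraries in the fit.

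*Cdh13*, whose T-cadherin is attached by a lipid anchor and is found on vessels and smooth muscle among other cells, spans 1041.2 kb on the plus strand at chr8:118283733-119324921. It measured 10.3, 9.16, 10.6 and 13.5 FPKM in Wnk1f/f and 4.16, 9.91, 5.48, 5.16 and 6.55 FPKM in Wnk1d/d libraries. Wnk1d/d replicate 2 lay among the controls and the other 4 lay below all of them. The means were 10.9 ± 1.87 FPKM (SD, n = 4) and 6.25 ± 2.22 FPKM (SD, n = 5), and the log2 fold change was -0.75 with a standard error of 0.20 (limma adjusted p = 0.028). By exact permutation p was 0.024. This was the least stable of the calls: leaving out Wnk1f/f replicate 1, 3 or 4 or Wnk1d/d replicate 1, 3, 4 or 5 gave limma adjusted p from 0.051 to 0.079. Endothelial markers were lower in the same uteri, with summed levels of 152 to 314 FPKM against 384 to 424 FPKM. Smooth muscle markers were higher, at 7256 to 13736 FPKM against 2819 to 6419 FPKM. The part of either shift in the *Cdh13* result was not tested.

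*Cdh6*, a type II cadherin known from kidney and other developing epithelia, lies on the minus strand at chr15:13028701-13173675. It was the lowest of the 7 genes in the controls, with 1.53, 0.91, 1.34 and 0.69 FPKM, and measured 3.20, 2.36, 2.66, 3.15 and 3.08 FPKM in Wnk1d/d libraries. The genotypes did not overlap. The means were 1.12 ± 0.385 FPKM (SD, n = 4) and 2.89 ± 0.365 FPKM (SD, n = 5), a ratio of 2.59, and the log2 fold change was 0.89 with a standard error of 0.14 (limma adjusted p = 0.0048). By exact permutation p was 0.0079. Summed smooth muscle markers were 6419, 4136, 5276 and 2819 FPKM in the same controls. In Wnk1d/d libraries they were 9534, 7256, 10825, 13736 and 13185 FPKM. Their part in the *Cdh6* result, and which cells held its mRNA, were not tested.

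*Alcam* had the largest change of the 7 genes and lies on the minus strand at chr16:52248996-52454074 in GENCODE M21. It measured 7.81, 5.83, 6.17 and 8.84 FPKM in Wnk1f/f and 31.4, 31.6, 20.8, 16.6 and 17.3 FPKM in Wnk1d/d libraries. The lowest Wnk1d/d value was well above the highest control, and within Wnk1d/d replicates 1 and 2 stood higher than the other 3. The means were 7.16 ± 1.41 FPKM (SD, n = 4) and 23.5 ± 7.46 FPKM (SD, n = 5), a ratio of 3.29, and the log2 fold change was 1.55 with a standard error of 0.22 (limma adjusted p = 0.0033). By exact permutation p was 0.0079. Wnk1d/d replicate 2, which was the knockout library nearest the control mean for 5 of the 7 genes (*Cdh2*, *Cdh3*, *Cdh6*, *Cdh11* and *Cdh13*), had the highest *Alcam* of all libraries.

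Promoter sequences, from 250 bases before to 50 after the start of the gene (RefSeq, GRCm38.p6), were read for *Cdh6* and *Alcam*, the genes of the 7 that were matched by symbol in the promoter set used here. They are shown as the sequence context of 2 genes that were called higher. The *Cdh6* window is chr15:13173626-13173925 and the *Alcam* window is chr16:52453032-52453331, both on the minus strand and printed 5′ to 3′ with motif matches in capitals.
Cdh6: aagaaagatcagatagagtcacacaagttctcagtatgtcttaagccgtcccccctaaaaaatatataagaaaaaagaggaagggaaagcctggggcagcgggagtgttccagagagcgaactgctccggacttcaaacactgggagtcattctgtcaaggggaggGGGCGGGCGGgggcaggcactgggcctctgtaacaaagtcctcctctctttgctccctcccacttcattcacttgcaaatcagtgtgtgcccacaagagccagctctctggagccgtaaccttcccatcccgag
Alcam: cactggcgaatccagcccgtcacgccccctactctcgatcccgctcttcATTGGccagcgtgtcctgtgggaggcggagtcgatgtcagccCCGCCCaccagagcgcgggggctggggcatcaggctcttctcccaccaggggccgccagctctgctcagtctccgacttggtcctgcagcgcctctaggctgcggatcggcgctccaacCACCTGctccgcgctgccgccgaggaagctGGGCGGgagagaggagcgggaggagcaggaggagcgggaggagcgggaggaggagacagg
The *Alcam* window was 69.7% G and C with 25 CpG, above 89.9% of the 32851 promoters of the same length in G and C content, and the *Cdh6* window was 53.0% G and C with 8 CpG, where the medians over all promoters were 52.7% and 7. The capitals in *Cdh6* mark 2 overlapping matches to the GC box GGGCGG, which 35.7% of promoters hold on either strand. Those in *Alcam* mark, in order, a CCAAT box on the opposite strand (37.4% of promoters), a GC box on the opposite strand, the E-box CACCTG (20.2% of promoters) and a GC box. The forkhead motif TGTTTAC (3.65% of promoters), the progesterone response element TGTTCT (19.0%) and the palindromic estrogen response element (0.0700%) had no match in either window. The RefSeq start of *Alcam* used here lies inside the GENCODE M21 gene. Matches were read on both strands and describe letters in these windows.

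The balance between the epithelial *Cdh1* and the stromal *Cdh11* is given as a description. The ratio of *Cdh1* to *Cdh11* FPKM was 0.488, 0.701, 0.701 and 0.388 in Wnk1f/f and 1.53, 0.914, 1.04, 0.751 and 0.829 in Wnk1d/d libraries. *Cdh11* exceeded *Cdh1* in all 4 controls, whereas *Cdh1* exceeded *Cdh11* in 2 of 5 Wnk1d/d libraries, and the lowest Wnk1d/d ratio was above the highest control ratio. As a difference of log2(FPKM + 1) it was -0.85 ± 0.41 (SD, n = 4) and -0.03 ± 0.39 (SD, n = 5). The FPKM of the 6 cadherins summed to 184 ± 6.40 (SD, n = 4) in Wnk1f/f and 148 ± 16.2 (SD, n = 5) in Wnk1d/d uteri. Of that sum, *Cdh11* made up 57.3% ± 5.38 (SD, n = 4) in controls and 43.9% ± 5.65 (SD, n = 5) in Wnk1d/d, and *Cdh1* made up 32.0% ± 6.11 and 43.1% ± 6.39, so that the most abundant pair accounted for most of the summed FPKM of these 6 cadherins in both genotypes.

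**Figure D3:**
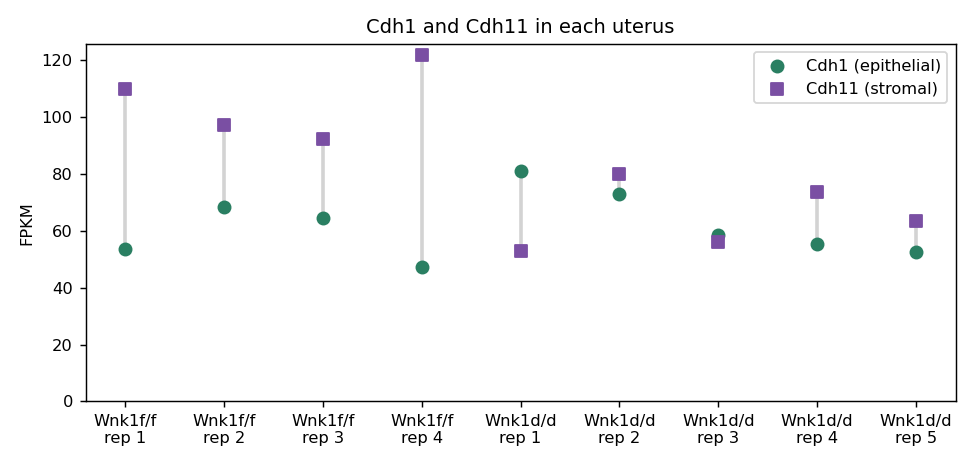
FPKM (vertical axis, from 0) of *Cdh1* (circles) and *Cdh11* (squares) in each of the 9 uteri, joined by a line within a library. The squares are far above the circles in the 4 Wnk1f/f libraries, and in Wnk1d/d the pair lies closer, with *Cdh1* the higher in replicates 1 and 3.

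In the controls mean levels fell in the order *Cdh11*, *Cdh1*, *Cdh13*, *Alcam*, *Cdh3*, *Cdh2*, *Cdh6*. Each gene was above the next in 4 of 4 libraries except *Cdh3* over *Cdh2*, which held in 3 of 4, so this pair did not differ beyond its spread. In Wnk1d/d uteri the order was *Cdh11*, *Cdh1*, *Alcam*, *Cdh3*, *Cdh13*, *Cdh6*, *Cdh2*. *Cdh11* was above *Cdh1* in 3 of 5 libraries, *Cdh3* above *Cdh13* in 4 of 5 and *Cdh6* above *Cdh2* in 4 of 5. None of these pairs therefore differed beyond its spread. The ratio of *Cdh3* to *Cdh2* FPKM was 1.08 ± 0.107 (SD, n = 4) in controls and 2.95 ± 0.915 (SD, n = 5) in Wnk1d/d, and that of *Alcam* to *Cdh13* was 0.659 ± 0.0742 and 4.08 ± 1.99.

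Markers of several cell types moved with genotype. All 7 smooth muscle markers were called higher, with summed levels of 2819 to 6419 FPKM in Wnk1f/f and 7256 to 13736 FPKM in Wnk1d/d. Of 7 endothelial markers 6 were called lower, and their sums ran from 384 to 424 FPKM and from 152 to 314 FPKM. Of 8 epithelial markers 2 were called higher (*Krt7* and *Cldn7*), with sums of 1100 to 1636 FPKM and 1230 to 1835 FPKM. The 8 stromal markers were divided: 4 were called higher, the matrix genes *Col6a3*, *Lum* and *Col1a1* among them, and the receptors *Pdgfra* and *Pdgfrb* were called lower, with sums of 1852 to 2491 FPKM and 2720 to 3574 FPKM. None of 7 immune or 6 liver markers was called by limma (0 and 1 at an unadjusted p under 0.05), and 1 of 4 mesothelial markers was (*Lrrn4*, higher, a call lost without Wnk1f/f replicate 2, 3 or 4 or Wnk1d/d replicate 3 or 5), with mesothelial sums of 8.30 to 29.1 FPKM and 22.1 to 77.3 FPKM. Leaving out 1 library, 4 to 7 smooth muscle markers (4 without Wnk1f/f replicate 2 or 4), 3 to 7 endothelial markers (3 without Wnk1d/d replicate 1, 4 without Wnk1f/f replicate 1, 2 or 4 or Wnk1d/d replicate 3) and 0 to 2 epithelial markers (0 without Wnk1f/f replicate 1 or Wnk1d/d replicate 1 or 3, 2 without Wnk1d/d replicate 5 and 1 without any other) were called. No epithelial, stromal, smooth muscle or endothelial marker was at 0 in any library. The part of these shifts in the changes of the 7 genes was not tested.

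Cadherin and *Alcam* levels were next set against markers of 1 compartment, as the log2(FPKM + 1) of the gene minus the mean of that compartment's markers, with adjustment over 6 such comparisons. *Alcam* relative to 8 epithelial markers was -3.98 ± 0.47 (SD, n = 4) in Wnk1f/f and -2.69 ± 0.23 (SD, n = 5) in Wnk1d/d, a difference of 1.29 with a standard error of 0.26 and without overlap (exact permutation test, adjusted p = 0.016). *Alcam* was set against epithelial markers only. Which cells held its mRNA was not tested, so the difference is not a level per epithelial cell. *Cdh1* relative to the same markers differed by -0.13 with a standard error of 0.09 (adjusted p = 0.23, exact permutation test), and *Cdh3* by 0.46 with a standard error of 0.27 (adjusted p = 0.23, exact permutation test). With the median of the epithelial markers in place of their mean, the *Cdh1* difference was -0.41 (adjusted p = 0.024, exact permutation test). *Cdh13* relative to 7 endothelial markers differed by 0.05 with a standard error of 0.16 (adjusted p = 0.75, exact permutation test), and its sign changed under other settings.

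Relative to the 8 stromal markers, *Cdh11* differed by -1.13 with a standard error of 0.19 and *Cdh2* by -0.84 with a standard error of 0.12, in both cases without overlap (exact permutation test, adjusted p = 0.016). The direction depended on which stromal markers were used. The markers were divided after the data were seen, with *Pdgfra* and *Pdgfrb* known to be lower and matrix genes known to be higher in Wnk1d/d, so these values are a description. Relative to *Pdgfra* and *Pdgfrb* alone *Cdh11* differed by 0.12 and *Cdh2* by 0.41. Relative to the 6 matrix genes alone the differences were -1.54 and -1.25.

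**Figure D4:**
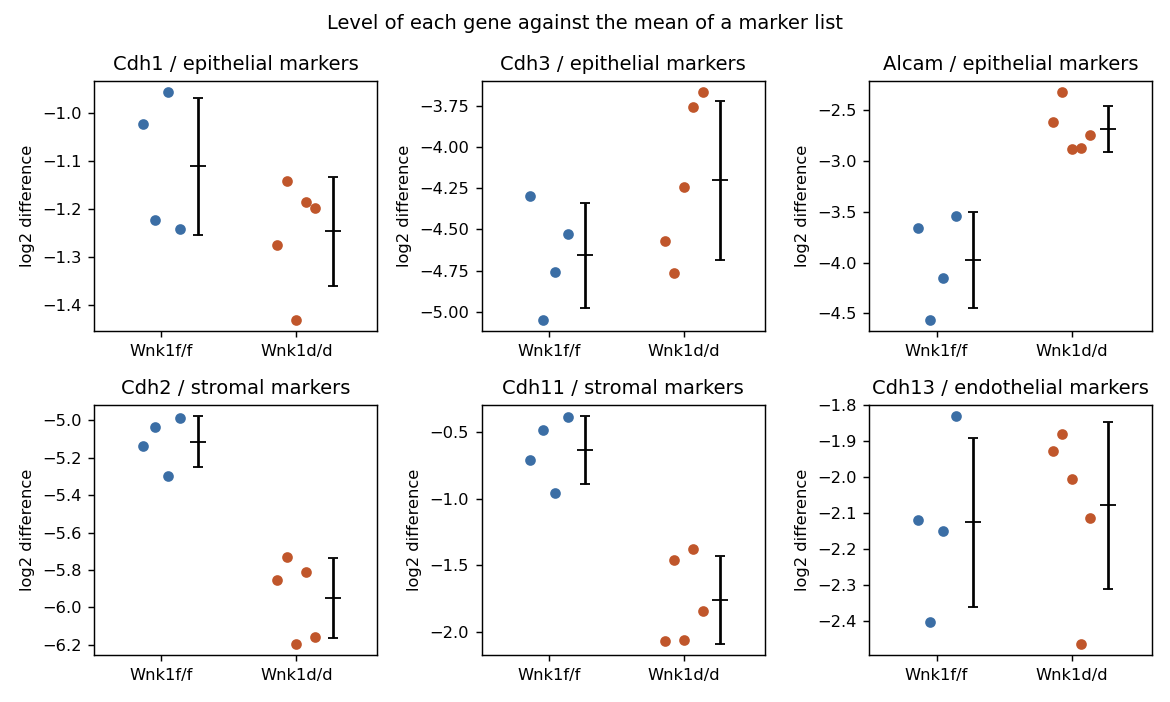
Log2(FPKM + 1) of each gene minus the mean of the markers named above its panel (vertical axes), in single libraries of Wnk1f/f (left) and Wnk1d/d (right), with bars for the mean and SD. *Alcam* rises against the epithelial markers, *Cdh11* and *Cdh2* fall against the 8 stromal markers as a group, which they do not against *Pdgfra* and *Pdgfrb* alone, and the other 3 comparisons overlap.

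Among the other cadherins, the mostly classical and type II ones were largely at or near the floor. Of 15 further cadherins, mostly classical and type II, 3 passed the filter and 1 was called, *Cdh24*, at 4.63 FPKM in Wnk1f/f and 7.16 FPKM in Wnk1d/d (log2 fold change 0.55, limma adjusted p = 0.013). The call was lost without Wnk1f/f replicate 1 or 4, where the ratios of mean FPKM were 1.47 and 1.46. Of 20 atypical cadherins and protocadherins listed in the data, 11 were tested and 1 was called, *Pcdh7*, at 8.31 and 13.3 FPKM. That call was lost without Wnk1f/f replicate 2 or without Wnk1d/d replicate 5. *Fat1* passed the adjusted p but not the fold criterion, at 36.5 and 47.2 FPKM without overlap (limma adjusted p = 0.023). Of the 11 tested, 5 had log2 fold changes above 0. The medians of these lists were 0.44 and -0.14.

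Of 14 catenins and other partners of cadherin tails 11 were tested, 1 was called higher and 2 lower, and the list's median was 0.00. *Vcl*, the actin linker vinculin, measured 68.3, 43.0, 66.1 and 43.7 FPKM in Wnk1f/f and 109.1, 90.0, 118.9, 124.9 and 127.8 FPKM in Wnk1d/d libraries, without overlap (log2 fold change 1.06, limma adjusted p = 0.0053). *Arvcf*, a p120 catenin relative, was at 8.09 and 4.80 FPKM (log2 fold change -0.65, limma adjusted p = 0.0032). *Pkp4* of the same list went the other way, at 27.8 and 40.8 FPKM without overlap (log2 fold change 0.56, limma adjusted p = 0.014). It passed the adjusted p but not the fold criterion. *Tjp1*, the scaffold ZO-1 that also sits at tight junctions, was at 41.8 and 26.3 FPKM (log2 fold change -0.67, limma adjusted p = 0.024), and without Wnk1f/f replicate 1, 3 or 4 or Wnk1d/d replicate 1, 3 or 5 its limma adjusted p was 0.051 to 0.065. The core catenins *Ctnna1*, *Ctnnb1*, *Ctnnd1* and *Jup* did not pass the adjusted p, with *Ctnnb1* at 368 and 359 FPKM. Vinculin is also abundant in smooth muscle, whose markers were higher in the same libraries, and the part of that shift in its change was not tested.

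Desmosomes, the other cadherin-based junction, are built from desmosomal cadherins and plakophilins. Of 10 desmosome genes 6 were tested, all with log2 fold changes above 0 (median 0.42), and 2 were called higher. *Dsc2*, desmocollin-2, measured 5.80, 3.61, 4.64 and 4.09 FPKM in Wnk1f/f and 13.97, 9.77, 9.40, 6.32 and 7.54 FPKM in Wnk1d/d libraries, without overlap (log2 fold change 0.88, limma adjusted p = 0.016). *Pkp2*, plakophilin-2, was at 6.01 and 11.2 FPKM (log2 fold change 0.80, limma adjusted p = 0.0038). Of 10 tested nectins, nectin-like proteins and partners 1 was called, *Ssx2ip*, the afadin-binding protein, at 6.51 and 9.87 FPKM, and that call was lost without Wnk1f/f replicate 1 or 4 or without Wnk1d/d replicate 1 or 3. The median of that list was 0.13.

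Of 11 genes for cleavage and turnover of cadherins and ALCAM none was called by limma (median -0.02), with 2 at an unadjusted p under 0.05. Without Wnk1f/f replicate 3 there were 2 calls, and without Wnk1f/f replicate 1 or Wnk1d/d replicate 1 there was 1. The sheddase *Adam9* alone had an adjusted p under 0.05, at 20.6 and 30.5 FPKM (limma adjusted p = 0.0064, under the fold criterion), and *Adam10*, the main sheddase of E-cadherin, was at 33.7 and 33.1 FPKM. Of 13 tested immunoglobulin-type adhesion molecules besides *Alcam* 1 was called, *Esam* of endothelial junctions, lower at 115 and 75.8 FPKM (median of the list -0.06). The call was lost without any 1 of the 4 controls or without Wnk1d/d replicate 1 or 3. The ALCAM ligand *Cd6* was below the filter. Of 12 transcription regulators of *Cdh1* 2 were called, the epithelial factors *Elf3* (25.5 and 52.9 FPKM, limma adjusted p = 0.032) and *Grhl2* (10.8 and 17.4 FPKM, limma adjusted p = 0.042), both higher (median of the list 0.14), while the repressors *Snai1*, *Snai2*, *Zeb1*, *Zeb2*, *Twist1* and *Twist2* did not pass. Of the 12 regulators 7 had an unadjusted limma p under 0.05, a share that was not computed over all genes. An adjusted p under 0.05 was reached by 3, all higher, against 22.1% of all genes tested in either direction. The genotypes did not overlap for 2 that were higher and 1 that was lower in Wnk1d/d, against 19.9% of all genes. No regulator was called without Wnk1f/f replicate 1 or 4 or without Wnk1d/d replicate 1 or 3, and 1 was called without Wnk1f/f replicate 3 or Wnk1d/d replicate 4 or 5.

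**Figure D5:**
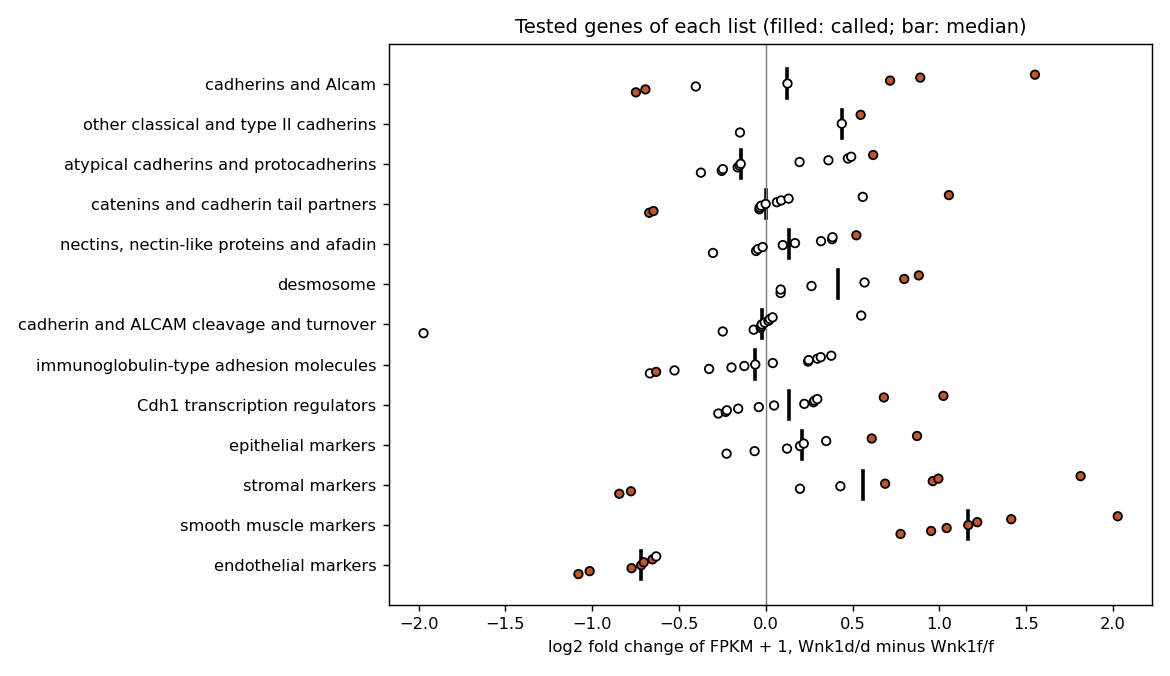
Log2 fold change (horizontal axis) of every tested gene of the cadherin and *Alcam* set and of each list. Filled points are called genes and the vertical ticks are list medians, which run highest for smooth muscle markers (1.17) and lie at -0.72 for endothelial markers.

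The genes whose log2(FPKM + 1) was most like each of the 7 over the 9 libraries are given as a description, since libraries share the genotype difference. *Cdh1* was most like *Rhpn2*, *Tfcp2l1* and *Esrp1*, an epithelial splicing factor (Pearson's r of 0.94 to 0.95). *Alcam* was most like *Gm5294*, *Aoc1* and *Atp2c2* (0.98 to 0.99), of which *Aoc1*, a diamine oxidase, was at 2.40 FPKM in Wnk1f/f and 22.4 FPKM in Wnk1d/d. *Cdh11* was most like *Hoxd10*, *Zcchc4* and *Slc25a42*, and *Cdh13* most like *Cyp4f17*, *Plcg1* and *Snrk* (0.99 for each). *Cdh2* was most like an unnamed entry, *Deptor* and *Scaper* (0.98 to 0.99), *Cdh3* most like an unnamed entry, *Slc6a17* and *Trdn*, and *Cdh6* most like *Ptgfrn*, an unnamed entry and *Parva* (0.99 for each of these).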

How the data were processed

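RNA-Seq libraries (TruSeq RNA Kit, 75-nt paired-end reads, Illumina HiSeq) were aligned by the authors to mm10, and the deposited FPKM values are per gene and library, already scaled for gene length and library size. The submitters' processing notes name TopHat2 2.0.4 and Cufflinks 2.0.2, and the gene annotation is not given in the sources used here. Depth is unknown from FPKM, so no counting intervals were given. Columns were matched to mice by their labels.

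From the deposited FPKM, log2(FPKM + 1) was compared with limma 3.58.1 in R 4.3.3 (lmFit, eBayes with trend, unpaired) over the 14728 of 31274 entries with a mean above 1 FPKM in at least 1 genotype, with Benjamini-Hochberg adjustment over all of them. The study used Cuffdiff, which needs aligned reads. Permutation tests were exact and two-sided, over every division into 4 and 5 libraries, in Python 3.11.15 with SciPy 1.17.1. The limma step was tested on simulated data. Each mouse gave 1 library.

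The 7 genes, the lists and the tests were chosen with earlier results of these data known. Named genes were the 7, *Wnk1*, at most 4 called genes with the largest change from each list, and the 3 genes most like each of the 7. Other genes were named after their values were seen. Alternatives were another pseudocount, filters, scalings, limma settings, a replicate block, another fold criterion and leaving out each library. Stromal marker subsets and leaving out 2 libraries together were added after seeing the data. Motifs were searched in RefSeq promoters (GRCm38.p6), matched by symbol for 2 of the 7 genes.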

Additional observations from a re-analysis of the deposited data

Results flagged for a closer look

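Of 96 groups of values examined, 4 held a library far from the others of its genotype by Dixon's criterion, and chance alone flags about 1 in 20 groups. *Tjp1* was at 38.91 FPKM in Wnk1d/d replicate 2, with the other 4 Wnk1d/d libraries at 21.49 to 24.62 FPKM. *Pkp2* was at 8.70 FPKM in the same library, with the others at 11.50 to 12.26 FPKM. *Arvcf* was at 5.69 FPKM in Wnk1d/d replicate 4, with the others at 4.44 to 4.75 FPKM. The summed liver markers were at 157.69 FPKM in Wnk1f/f replicate 4, with the other controls at 8.29 to 10.58 FPKM. None of the 7 genes themselves met the criterion in either genotype.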

How the results depend on the processing

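Of the 7 genes, 4 to 6 were called when 1 library was left out, and 1019 to 1870 genes of the whole table. Leaving out 1 library gave log2 fold changes of -0.46 to -0.36 for *Cdh2* and -0.91 to -0.64 for *Cdh13*. A fold criterion of 2 called 550 genes and 2 of the 7 (*Alcam* and *Cdh6*), and without Wnk1f/f replicate 4 and Wnk1d/d replicate 4 together 806 genes and 3 of the 7 were called. A replicate block called 218 genes and 1 of the 7 (*Alcam*), with log2 fold changes of -0.37 for *Cdh2*, 0.66 for *Cdh3*, 0.87 for *Cdh6*, -0.69 for *Cdh11* and -0.77 for *Cdh13*. The numbers belong to different mice, and the deviations of libraries with the same number correlated at -0.27 to 0.022, so the block rests on a shared number alone. Library weights turned the *Cdh1* value to -0.0040. For levels relative to markers, leaving out 1 library gave 1.1 to 1.44 for *Alcam*, -0.90 to -0.78 for *Cdh2*, and -1.23 to -1.04 for *Cdh11*, where 0.057 is the smallest adjusted p that 3 such tied comparisons among 6 can reach by exact permutation once a Wnk1d/d library is left out, so the threshold could not be passed there. The *Cdh1* value with the median of the epithelial markers was -0.41. For *Cdh13* against endothelial markers it was -0.12 with their median, -0.018 with a pseudocount of 0.1, -0.045 without Wnk1f/f replicate 2 and -0.002 without Wnk1d/d replicate 2, and it reached 0.15 without Wnk1f/f replicate 4. Against *Pdgfra* and *Pdgfrb* alone *Cdh2* was 0.41 and *Cdh11* 0.12. The cause of these changes was not tested. Absolute depth is unknown, which limits what can be said of *Cdh6* and other genes near 1 FPKM.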

Other observations

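Among cadherin-related genes below the filter, *Clstn3*, a calsyntenin, was at 0.43, 0.57, 0.37 and 0.65 FPKM in Wnk1f/f and at 0.22, 0.30, 0.17, 0.24 and 0.22 FPKM in Wnk1d/d libraries. It was chosen after its values were seen, and the limma fit with the filter did not test it. Its ratio of mean FPKM was 0.455. *Mmp7*, a protease of glandular epithelium, was at 79.3, 14.5, 6.29 and 110.2 FPKM in Wnk1f/f and at 6.09, 23.6, 8.18, 4.38 and 3.0 FPKM in Wnk1d/d libraries, and the genotypes overlapped (exact permutation p = 0.087). It was also chosen after its values were seen, for the spread within the controls.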
